A study of Mus musculus with 12 samples.

Results

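The 7 genes described here encode proteins that noradrenergic, serotonergic, and dopaminergic neurons have in common. They were chosen by symbol, and all 7 were found among the 55418 genes of the count table: *Ddc*, *Slc18a2*, *Gch1*, *Maoa*, *Maob*, *Slc22a3*, and *Slc29a4*. Brainstem (medulla and pons) RNA came from 12 outbred CFW mice at postnatal day (P) 15, with 1 library per mouse. The 3 saline females and 3 saline males had received saline injections 2 times daily from P1 to P14. The 3 morphine females and 3 morphine males had received 15 mg/kg morphine subcutaneously on the same schedule, and tissue was taken 16 h after the last injection, in spontaneous withdrawal. All 4 groups therefore share the handling and the injections, litters were mixed, and the dam of each mouse was not used here. The labels name brainstem as the tissue, whereas the extraction protocol that was deposited speaks of spinal cords. *Tph2* (20.2 to 41.6 CPM) and *Dbh* (3.34 to 9.63 CPM), which mark serotonergic and noradrenergic cell bodies, were detected in every library. CPM are counts scaled to the size of each library, after TMM normalization.

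Monoamines are made from amino acids by a hydroxylase that needs tetrahydrobiopterin, and then by a decarboxylase. The amine is loaded into vesicles, released, taken back up, and oxidized at the outer mitochondrial membrane. *Gch1* encodes GTP cyclohydrolase 1, which starts tetrahydrobiopterin synthesis, and *Ddc* encodes aromatic L-amino acid decarboxylase, which makes dopamine and serotonin. *Slc18a2* encodes VMAT2, the vesicular monoamine transporter of neurons. *Maoa* and *Maob* encode the 2 monoamine oxidases. *Slc22a3* (OCT3) and *Slc29a4* (PMAT) encode low-affinity, high-capacity transporters that clear amines outside the synapse. The locus coeruleus and the raphe nuclei, the main sources of noradrenaline and serotonin in the brain, lie in this tissue, and noradrenergic activity is a known part of opioid withdrawal.

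*Maoa* and *Maob* lie next to each other on chromosome X and are transcribed toward each other, at X:16619698-16687818 on the plus strand and X:16709282-16817366 on the minus strand (GRCm38, GENCODE M21). Their messages are related, so the longest stretch they share is shown with 20 bases on either side, because a read inside it could not be assigned to either gene. The capitals mark the shared run of 35 bases. The whole stretch shown, with its flanks, crosses the junction of coding exons 11 and 12 in both transcripts. It lies at X:16680852-16682255 for *Maoa* and at X:16716429-16718275 for *Maob*.
Maoa: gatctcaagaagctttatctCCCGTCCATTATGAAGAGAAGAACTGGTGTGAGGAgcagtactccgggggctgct
Maob: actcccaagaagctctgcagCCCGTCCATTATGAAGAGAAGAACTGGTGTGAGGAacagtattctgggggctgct
The run is shorter than the reads of 100 bases, so a full-length read over it also covers bases that differ. The longest runs shared by *Slc22a3* and *Slc22a2* and by *Slc18a2* and *Slc18a1* were 15 bases each.

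The members also differ in base composition. The GC content of the transcript was 60.1% for *Slc29a4*, 52.0% for *Slc22a3*, 48.9% for *Ddc*, 48.8% for *Gch1*, 45.3% for *Maob*, 42.9% for *Slc18a2*, and 40.4% for *Maoa*. The first 60 coding bases of the members at either end of that order are shown, with the start codon in capitals, from exon 2 of *Slc29a4* (5:142705367-142705426, plus strand) and exon 1 of *Maoa* (X:16619841-16619900, plus strand).
Slc29a4: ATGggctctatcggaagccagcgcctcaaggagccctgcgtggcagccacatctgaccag
Maoa: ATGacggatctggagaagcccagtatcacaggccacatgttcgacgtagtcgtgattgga
Of these 60 bases, 38 are G or C in *Slc29a4* and 31 in *Maoa*. The other members lie at 11:11814101-11898144 (*Ddc*), 14:47153895-47189413 (*Gch1*), 17:12418960-12507704 (*Slc22a3*), 19:59260896-59296012 (*Slc18a2*), and 5:142692512-142722490 (*Slc29a4*, whole gene). Exons of *Slc18a2* overlap those of the antisense gene *Gm29261* over 111 bases, and exons of *Slc22a3* overlap those of *Plg* on the other strand over 420 bases. The strand setting of the counting is not given in the sources used here. Counts of these 2 members may therefore be affected by the overlaps, in a direction that is not known.

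Between 27850565 and 48097947 counts per library fell on genes. In the library labelled morphine male 6, *Xist* was at 379.9 CPM, against 547 to 970.5 CPM in the females and 0.398 to 2.71 CPM in the other males, and 4 Y-linked genes summed to 53.2 CPM, against 232 to 393.8 CPM in the other males. It was kept where its label puts it, and the differences that rest on sex are given without it too. Correlations within males are given with it only, since 5 males would remain. Libraries also differed in how levels followed GC content across 18586 genes. The slope of log2 CPM on GC was 0.43 and 0.55 per 10 percentage points in saline males 1 and 2, -0.53 in saline male 3, -0.32 in saline female 6, 0.26 in morphine male 6, and between -0.16 and 0.06 in the other 7 libraries. The saline males thus hold both ends of this range.

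Of the 7 members, *Maoa* was the most abundant per kb of merged exon. In the 6 saline mice it was at 25.1 ± 4.07 CPM per kb of exon (SD, n = 6), and its lowest library lay above the highest library of each other member. *Ddc* (8.58 ± 1.72), *Maob* (8.28 ± 1.01), *Slc18a2* (8.07 ± 1.93), and *Slc29a4* (8.00 ± 4.17 CPM per kb) followed with overlapping ranges, so their order was not larger than the spread between mice. *Gch1* (0.811 ± 0.117) and *Slc22a3* (0.797 ± 0.102 CPM per kb) were about equal and lay below the other 5 in every saline library. The rate-limiting enzyme of tetrahydrobiopterin synthesis and the transporter OCT3 were thus the least abundant members. These comparisons rest on the length of merged exons. It was 4461 bases for *Ddc* and 6251 for *Gch1*, against 2018 and 2775 in the transcript used for GC content. For *Maoa* both lengths were 4167 bases. The transcript was also shorter for *Slc18a2* (3785 against 5225), *Slc22a3* (3504 against 4513), *Maob* (2411 against 2789), and *Slc29a4* (2789 against 2862 bases). Transcript lengths would therefore raise every other member relative to *Maoa*. The gap between *Maoa* and *Ddc*, and the near equality of *Gch1* and *Slc22a3*, are given for merged exons only. The order with transcript lengths was not tested.

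Among the 30 other genes of monoamine metabolism examined, the 5 with the highest level per length in saline mice are not restricted to monoamine neurons. *Akr1a1*, an aldehyde reductase, was at 85.3 ± 21.3 CPM per kb, and *Qdpr*, which regenerates tetrahydrobiopterin, was at 43.8 ± 8.49 CPM per kb. *Aldh1a1*, an aldehyde dehydrogenase, was at 26.01 ± 3.96 CPM per kb. *Pdxk*, which makes the pyridoxal phosphate cofactor of the decarboxylase, was at 18.2 ± 4.32 CPM per kb, and *Hnmt*, which methylates histamine, was at 16.5 ± 3.72 CPM per kb (SD, n = 6 each). Among all 37 genes, *Maoa* ranked below *Aldh1a1* and above *Pdxk* in mean level per length.

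**Figure D1:**
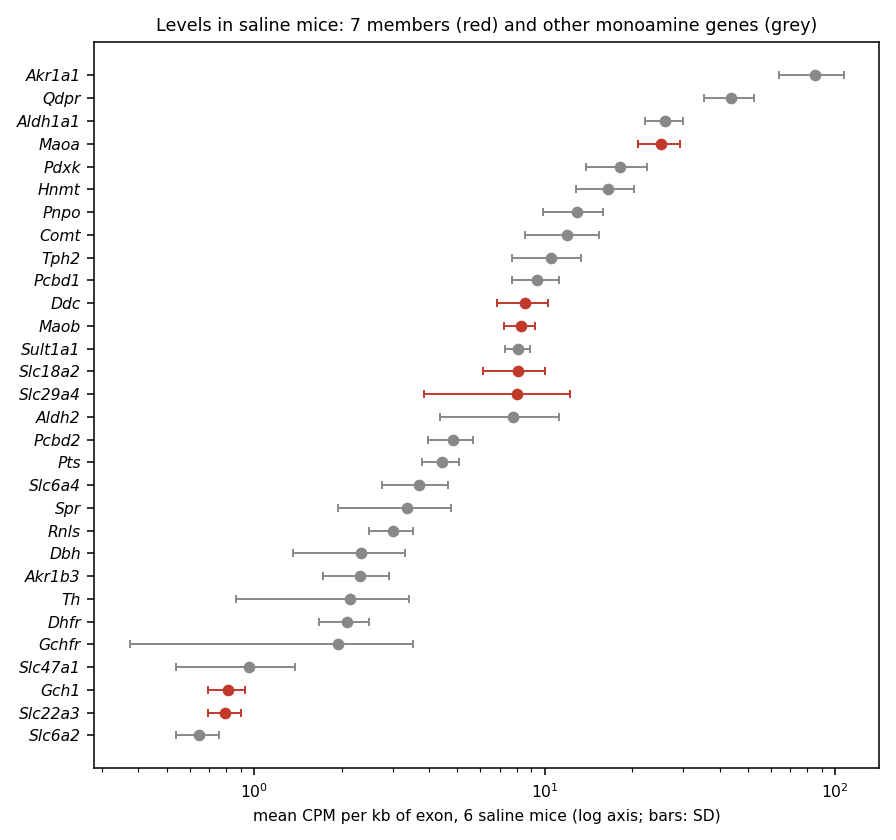
Mean CPM per kb of exon in 6 saline mice on a log axis, for the 7 members (red) and other monoamine genes (grey), with bars for the SD; the 7 other genes under 0.5 CPM per kb are not drawn. *Maoa* stands apart from the other members at 25.1 CPM per kb, and *Gch1* and *Slc22a3* lie near 0.8 CPM per kb.

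The first comparison asked whether withdrawal from morphine changed these genes across both sexes. None of them passed the test: 0 of 7 members were DE, where DE means a *p* under 0.05 before adjustment together with a log2 fold change of more than 0.26 in either direction, against 1.19% of the 18608 genes tested. The Wald test of DESeq2 also called 0 of 7 in this fit and in each of the 4 fits that follow. The log2 fold changes of morphine over saline ran from -0.09 (*Slc29a4*) to 0.13 (*Slc22a3*), 3 of 7 were above 0, and their median was -0.02, equal to that of all genes. Scaling by total counts put 6 of 7 above 0, so the direction of changes this small depends on the scaling. No member had groups that did not overlap, against 0.043% of all genes.

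*Ddc* was at 50.7, 39.0, and 33.2 CPM in saline males, 43.2, 33.1, and 30.5 CPM in saline females, 40.5, 34.8, and 45.8 CPM in morphine females, and 33.9, 32.8, and 44.6 CPM in morphine males. Each group held both high and low libraries. Its log2 fold change over both sexes was 0.03 ± 0.14 (SE; adjusted *p* = 1.00, edgeR quasi-likelihood test), with a 95% interval from -0.27 to 0.33.

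*Slc18a2* was at 50.2, 25.9, and 51.5 CPM in saline males, 49.5, 39.6, and 36.4 CPM in saline females, 49.1, 41.1, and 56.2 CPM in morphine females, and 41.02, 40.0, and 46.1 CPM in morphine males. Saline male 2 was the lowest of the 12 libraries and the other 11 lay between 36.4 and 56.2 CPM. The log2 fold change was 0.12 ± 0.16 (SE), with a 95% interval from -0.23 to 0.47. It was 0.01 without saline male 2.

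*Gch1*, with 135 to 211 counts per library, was at 5.42, 4.62, and 5.85 CPM in saline males, 5.83, 4.56, and 4.13 CPM in saline females, 4.76, 5.04, and 5.76 CPM in morphine females, and 4.01, 5.02, and 5.26 CPM in morphine males. The 4 groups overlapped, and the log2 fold change was -0.02 ± 0.13 (SE), with a 95% interval from -0.30 to 0.27.

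*Maoa* was at 90.3, 81.1, and 129.8 CPM in saline males, 108.9, 110.0, and 106.7 CPM in saline females, 107.4, 107.2, and 116.1 CPM in morphine females, and 96.8, 103.5, and 86.0 CPM in morphine males. The 6 females lay within 106.7 to 116.1 CPM, whereas saline males held both the lowest and the highest library. The log2 fold change was -0.02 ± 0.11 (SE), with a 95% interval from -0.25 to 0.22.

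*Maob* was at 19.7, 20.3, and 26.9 CPM in saline males, 25.2, 24.2, and 22.2 CPM in saline females, 24.5, 20.8, and 25.0 CPM in morphine females, and 19.4, 23.9, and 20.8 CPM in morphine males. Its highest library was again saline male 3. The log2 fold change was -0.04 ± 0.10 (SE), with a 95% interval from -0.26 to 0.19. For both oxidases and both enzymes of synthesis, the 95% intervals over both sexes thus lay between -0.30 and 0.33 on the log2 scale.

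*Slc22a3*, with 92 to 160 counts per library, was at 4.05, 3.50, and 4.01 CPM in saline males, 3.50, 2.80, and 3.71 CPM in saline females, 3.75, 3.89, and 4.07 CPM in morphine females, and 4.40, 3.61, and 3.63 CPM in morphine males. After TMM normalization all morphine females lay above all saline females, with a lowest value of 3.75 CPM against a highest value of 3.71 CPM. These were morphine female 1, with 122 of 32347329 counts, and saline female 6, with 131 of 34430062. Scaled by total counts alone, saline female 6 was the higher, so the groups then overlapped. The log2 fold change over both sexes was 0.13 ± 0.12 (SE), with a 95% interval from -0.14 to 0.39.

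*Slc29a4* was at 36.1, 39.3, and 11.5 CPM in saline males, 20.5, 16.8, and 13.2 CPM in saline females, 19.7, 17.5, and 22.0 CPM in morphine females, and 21.2, 18.0, and 25.3 CPM in morphine males. The saline males held the 2 highest libraries and the lowest, with the other 9 between 13.2 and 25.3 CPM. The highest library was 3.43 times the lowest, against 1.39 to 2.17 times for the other 6 members. The log2 fold change was -0.09 ± 0.25 (SE), with a 95% interval from -0.64 to 0.45, the widest of the 7.

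**Figure D2:**
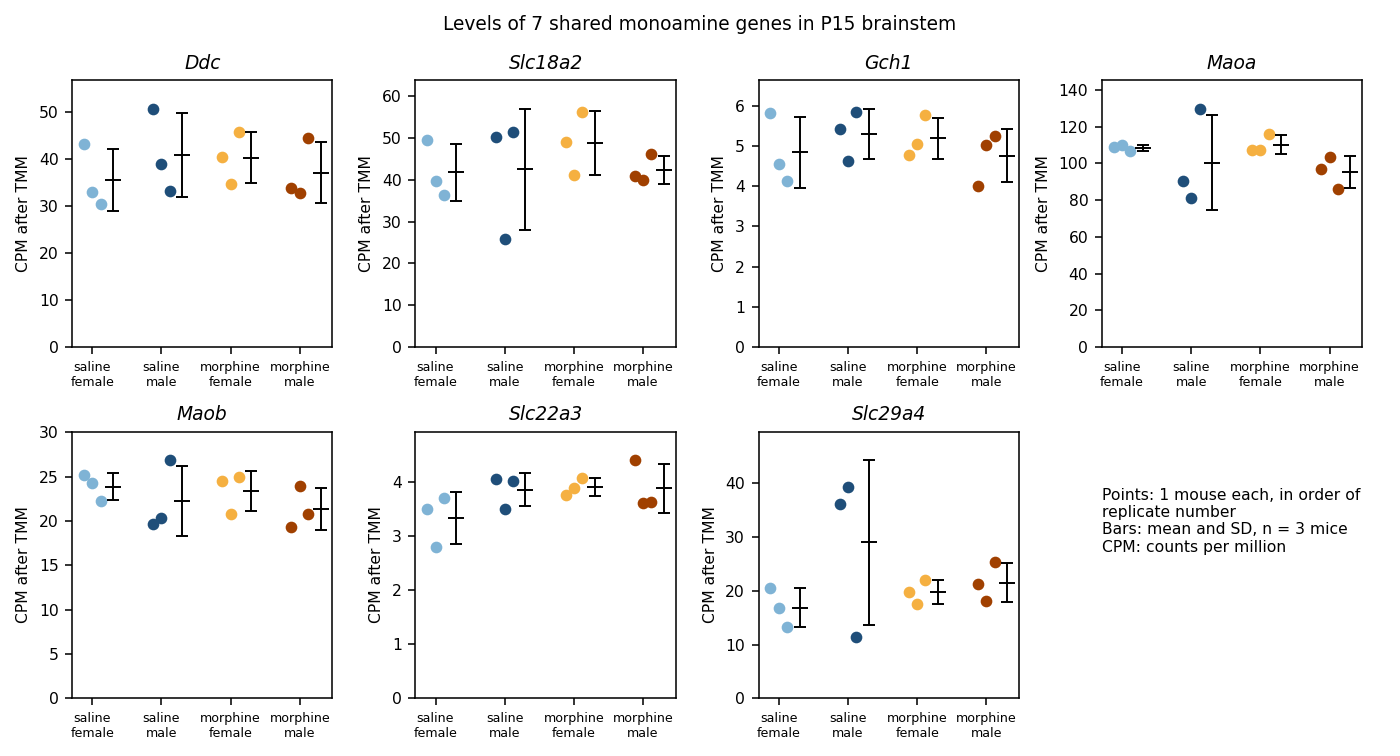
CPM of each member in each mouse by group, with black bars for the mean and SD of 3 mice; points within a group are in order of replicate number. The groups overlap in most panels, and the saline males spread most widely for *Slc29a4*, *Maoa*, and *Slc18a2*.

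The sexes were then compared separately, as the study did. In females, 0 of 7 members were DE, against 1.81% of 18109 genes, and 6 of 7 had a log2 fold change above 0, with a median of 0.18 against -0.01 over all genes. *Slc29a4* was at 0.22 ± 0.16 (SE), *Slc22a3* at 0.22 ± 0.19, *Slc18a2* at 0.22 ± 0.14, *Ddc* at 0.18 ± 0.14, and *Gch1* at 0.10 ± 0.18, while *Maoa* (0.02 ± 0.08) and *Maob* (-0.03 ± 0.11) were nearest 0. Each adjusted *p* was 1.00 after rounding. *Slc22a3* was the 1 member whose female groups did not overlap after TMM normalization, against 5.65% of all genes, and its unadjusted *p* was 0.265. Without saline female 4, the highest of its group for *Ddc*, *Slc18a2*, *Gch1*, and *Slc29a4*, 3 members were DE: *Ddc* (log2 fold change 0.33), *Slc18a2* (0.35), and *Slc29a4* (0.38), with adjusted *p* of 0.600 to 0.604 and 7.95% of all genes DE in that fit. Without morphine female 2, *Slc18a2* was DE (0.33, adjusted *p* = 0.954), with 3.73% of all genes DE. Leaving out morphine female 3 or saline female 6 moved *Ddc*, *Slc18a2*, *Gch1*, and *Slc29a4* toward 0. Without morphine female 3, *Ddc* was at 0.08, *Slc18a2* at 0.10, *Gch1* at 0.01, and *Slc29a4* at 0.14. Without saline female 6, *Ddc* was at 0.09, *Slc18a2* at 0.14, *Gch1* at 0.01, and *Slc29a4* at 0.09. *Slc22a3* was at 0.11 without saline female 5, but at 0.32 without saline female 6 and 0.25 without morphine female 1. *Gch1* was at 0.16 without morphine female 1. In each of these fits 0 members were DE, and the size of the changes in females depends on which mice are kept.

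In males, 0 of 7 members were DE, against 2.99% of 18166 genes, and 0 had groups that did not overlap, against 9.1%. The log2 fold changes were 0.00 ± 0.19 for *Slc22a3*, -0.02 ± 0.28 for *Slc18a2*, -0.07 ± 0.19 for *Maob*, -0.09 ± 0.21 for *Maoa*, -0.15 ± 0.21 for *Ddc*, -0.16 ± 0.21 for *Gch1*, and -0.43 ± 0.43 (SE) for *Slc29a4*. The median was -0.09, against -0.06 over all genes. Scaling by total counts moved the median of all genes to 0.06 and put 4 of 7 members above 0 instead of 1. Leaving out morphine male 6 left 0 members DE, with log2 fold changes from -0.57 (*Slc29a4*) to 0.04 (*Slc22a3*).

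The response of males less that of females was below 0 for each of the 7 members, from -0.02 ± 0.22 for *Maob* to -0.64 ± 0.49 (SE) for *Slc29a4*, with 0 of 7 DE against 2.94% of 19027 genes. The adjusted *p* was between 0.985 and 0.996. A difference between the sexes in the response to morphine was therefore not larger than the spread between mice for any member. Under scaling by total counts, *Maoa* (0.02) and *Maob* (0.08) were above 0. Without morphine male 6, *Maob* was at 0.00 and the others between -0.77 and -0.01, and 0 members were DE.

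Females were also compared with males over both treatments, since *Maoa* and *Maob* are X-linked. *Maoa* was 0.17 ± 0.11 and *Maob* 0.13 ± 0.10 (SE) higher in females on the log2 scale, and neither was DE (adjusted *p* = 0.734 and 0.747). Without morphine male 6, the differences were 0.13 and 0.12. Without saline male 3, *Maoa* was at 0.26 ± 0.06 (SE; unadjusted *p* = 0.00168, adjusted *p* = 0.0522), just under the fold-change threshold, and *Maob* at 0.18 ± 0.08 (SE; adjusted *p* = 0.178), in a fit where 20.9% of all genes were DE. Without saline male 2, *Maoa* was at 0.11. *Slc29a4* was at -0.44 ± 0.25 (SE; adjusted *p* = 0.734), the largest difference of the 7, and the other 4 members were between -0.09 and 0.10. Without morphine male 6, *Slc29a4* was at -0.43 and these 4 were between -0.12 and 0.11, with 0 members DE. *Slc29a4* was at -0.29 without saline male 2, and at -0.05 ± 0.07 (SE) with the offsets and all mice. None of the 7 was DE, against 3.94% of 18608 genes, and *Slc29a4* was DE with no filter on low counts (-0.46, adjusted *p* = 0.766), when 6.19% of all genes were.

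**Figure D3:**
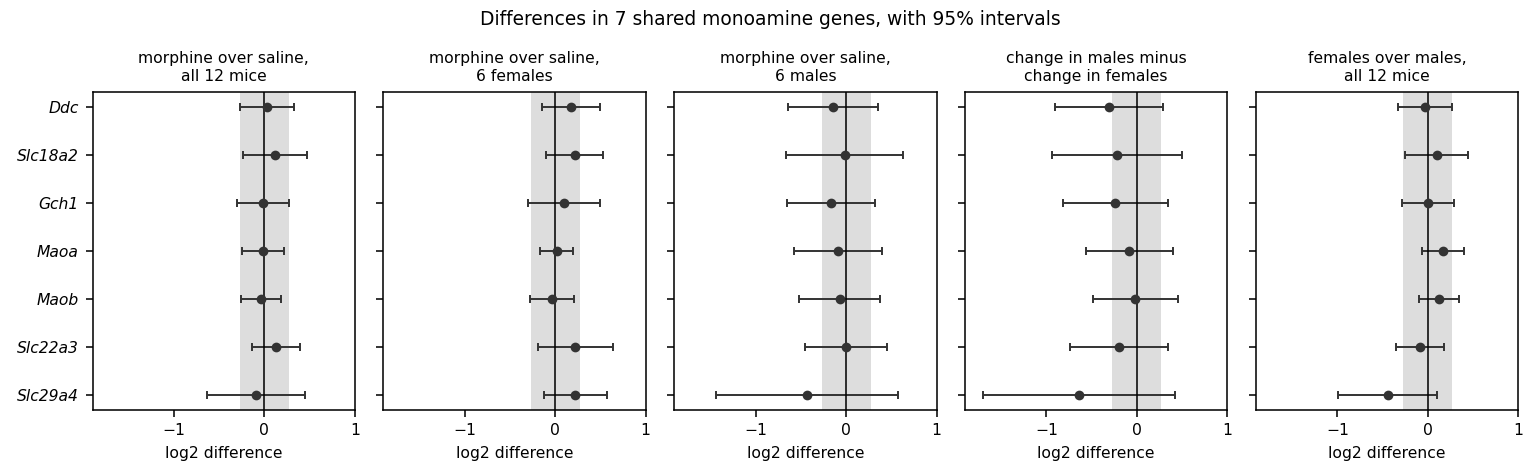
Log2 difference of each member (points) with its 95% interval (bars) in the 5 fits, where the grey band marks 0.26 on either side of 0, the fold-change threshold. Each interval includes 0, and those of *Slc29a4* are the widest where saline males enter.

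The balance of the 2 oxidases does not depend on depth or scaling, because both are counted in the same library. The ratio of *Maob* to *Maoa* per kb was 0.333 ± 0.0242 in saline mice and 0.326 ± 0.0281 in morphine mice (SD, n = 6 each), and it ranged from 0.290 to 0.374 over the 12 libraries. The *Maoa* and *Maob* transcripts differ in GC content (40.4% and 45.3%), and a relation of the ratio to the GC slope was not tested. It was 0.374 in saline male 2 (slope 0.55) and 0.309 in saline male 3 (slope -0.53). The lowest, 0.290, was in morphine female 2 (slope -0.13). The difference in the mean log2 ratio was -0.03 (exact two-sided permutation test, *p* = 0.662). By group, females had a ratio of 0.329 ± 0.0171 under saline and 0.317 ± 0.0257 under morphine, and males had 0.337 ± 0.0335 and 0.335 ± 0.0327 (SD, n = 3). Without morphine male 6, whose ratio was 0.362, the other morphine males were at 0.299 and 0.346 and the difference in the mean log2 ratio was -0.06.

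*Slc29a4*, which takes up serotonin and dopamine with low affinity, stood out for its spread among saline males. Without saline male 3, its log2 fold change in males was -0.77 ± 0.16 (SE; adjusted *p* = 0.0198) and its change in males less that in females was -1.04 ± 0.24 (SE; adjusted *p* = 0.0177). In the same fits 28.6% and 24.1% of all genes were DE. Without saline male 2 the same values were -0.16 ± 0.46 and -0.37 ± 0.49, and without saline male 1 they were -0.24 ± 0.49 and -0.44 ± 0.51 (SE), none of them DE. In the comparison of females with males without saline male 3, *Slc29a4* was at -0.61 and DE (adjusted *p* = 0.0668), with 20.9% of all genes DE. Its level followed the GC slope of the library, a relation examined after the values were seen. Over the 12 libraries, Pearson's *r* was 0.992 and Spearman's rho 0.993 (permutation *p* = 1e-05 each, the smallest that 100000 permutations can give; adjusted over 7 members, 7e-05). The *r* was 0.991 within females, 0.993 within males, and 0.985 without saline males 2 and 3, the 2 libraries farthest from the median slope. The slope was fitted to levels of 18586 genes in these same libraries, so a gene of high or low GC content tends to follow it. A permutation *p* against the slope therefore cannot show a trait particular to a member. How many other genes follow it as closely was not tested.

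With loess offsets for GC and gene length, added after the data were seen, the SD of *Slc29a4* over the 12 libraries fell from 0.51 to 0.10 on the log2 scale. Its log2 fold change was then 0.00 ± 0.10 (SE) in males and -0.07 ± 0.14 (SE) for males minus females, and without saline male 3 it was -0.07 ± 0.08 (SE) in males (adjusted *p* = 0.649). The offsets remove the trend with GC over all genes by construction, so a gene of high GC content that follows the trend loses most of its spread. What spread remained still followed the slope, with *r* = 0.823 for *Slc29a4* and 0.709 for *Ddc* after the offsets.

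*Maoa*, the member with the lowest GC content, went the other way, with *r* = -0.863 (permutation *p* = 0.00051, adjusted 0.00178) and rho = -0.615 (permutation *p* = 0.0375, adjusted 0.0876). The *r* was -0.960 within males but 0.637 within females, and -0.674 without the 2 farthest libraries, so the sexes differed in sign. The offsets took its SD from 0.24 to 0.06 in males and from 0.05 to 0.16 in females. *Maob* had *r* = -0.617 (adjusted permutation *p* = 0.0586; -0.821 within males and 0.646 within females), and *Ddc* had *r* = 0.713 (adjusted permutation *p* = 0.0208; rho = 0.783), which was 0.970 within females, 0.735 within males, and 0.889 without the 2 farthest libraries. *Slc18a2*, *Gch1*, and *Slc22a3* had *r* between -0.282 and 0.0316 over the 12 libraries. Within females, however, *r* was 0.952 for *Slc18a2* and 0.933 for *Gch1*, against -0.514 and -0.288 within males, and without the 2 farthest libraries it was 0.677 and 0.563. *Slc22a3* had 0.266 within females, -0.349 within males, and 0.328 without the 2 farthest. The SDs of these 3 members after the offsets (0.30, 0.23, and 0.17) were no smaller than before (0.30, 0.18, and 0.16).

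**Figure D4:**
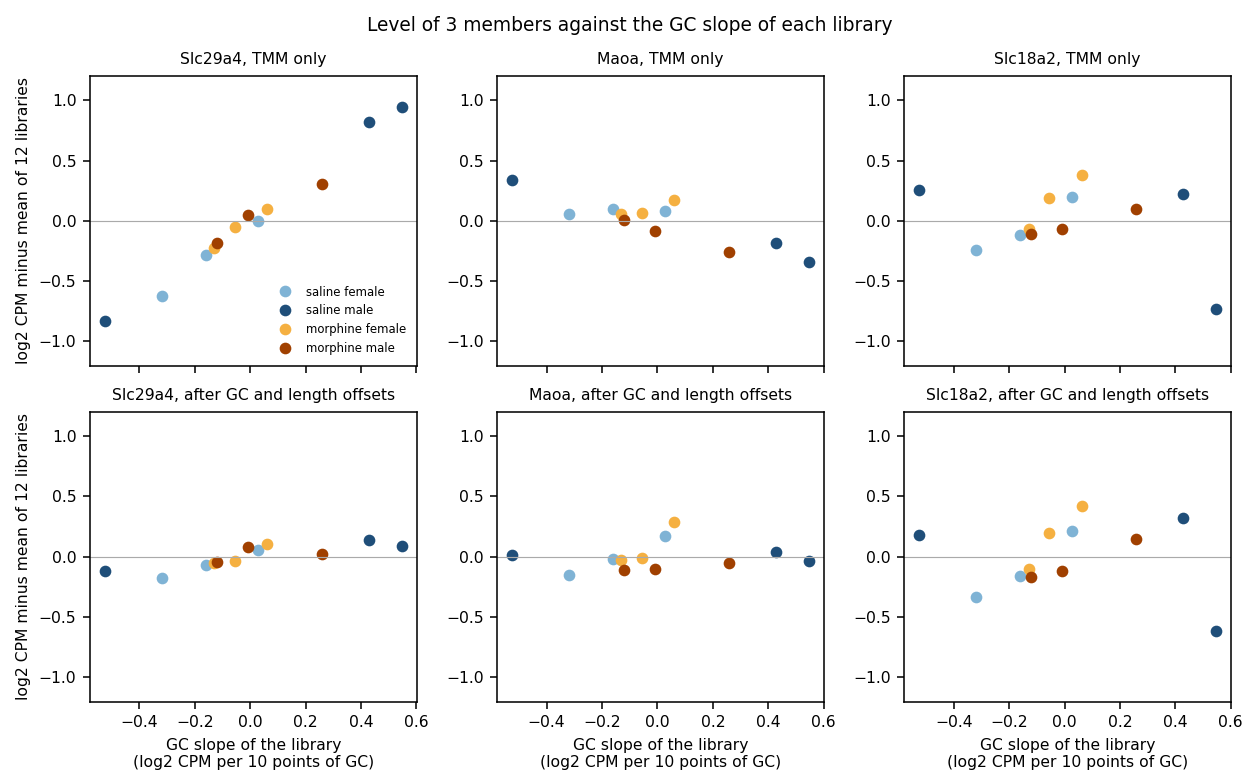
Log2 CPM of *Slc29a4*, *Maoa*, and *Slc18a2* minus the mean of the 12 libraries (y axis) against the GC slope of the library (x axis), before (top) and after (bottom) offsets for GC content and gene length; each point is 1 mouse. *Slc29a4* rises along the slope before the offsets and less steeply after them (*r* = 0.992 and 0.823), *Maoa* falls in males before them, and saline male 2 stays low for *Slc18a2* in both.

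Levels in bulk tissue also follow how much of each cell type a dissection holds, and fewer cells of a type cannot be told apart from less RNA per cell. The members were therefore set against 5 lists of cell type markers over the 12 libraries, as 35 relations. *Ddc* with the serotonergic list was the 1 relation whose Pearson's *r* passed the threshold (*r* = 0.821, permutation *p* = 0.00112, adjusted 0.0392; rho = 0.881, permutation *p* = 0.00039, adjusted 0.00682). The *r* was 0.959 within females, 0.746 within males, and 0.724 without the 2 farthest libraries. Leaving out each mouse in turn gave *r* from 0.785 to 0.872, and the adjusted permutation *p* passed 0.05 without saline male 1, saline females 4, 5, or 6, morphine female 2, or morphine male 5, with a highest value of 0.156. With the offsets for GC and length it was 0.484 (adjusted permutation *p* = 0.221), and *Slc18a2* with the serotonergic list was then the 1 relation to pass, at 0.883 (adjusted permutation *p* = 0.00595), against 0.631 before (adjusted permutation *p* = 0.113; rho = 0.804, adjusted permutation *p* = 0.0307).

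By Spearman's rho, 3 relations passed, which were *Ddc* and *Slc18a2* with the serotonergic list and *Slc29a4* with the noradrenergic list. *Ddc* (*r* = 0.751) and *Slc29a4* (0.762) with the noradrenergic list each had an adjusted permutation *p* of 0.0584, and for *Slc29a4* rho was 0.881 (adjusted permutation *p* = 0.00682). Neither passed with the offsets for GC and length. There, *r* with this list was 0.582 for *Ddc* (adjusted permutation *p* = 0.166) and 0.534 for *Slc29a4* (0.18). The rho of *Slc29a4* was then 0.622 (adjusted permutation *p* = 0.134). *Ddc* (-0.683) and *Slc18a2* (-0.686) ran against the meningeal fibroblast list (adjusted permutation *p* = 0.102 each). With group means removed, 7 relations passed, among them *Ddc* with the noradrenergic list (*r* = 0.873) and with the meningeal fibroblast list (-0.875), each with an adjusted permutation *p* of 0.00577. The choroid plexus list, whose summed level ranged from 12.4 to 861.6 CPM between dissections, had *r* between -0.390 and 0.437 with the members. The summed level of the serotonergic list, of which 6 of 7 genes reached 1 CPM, was 66.7 to 99.8 CPM in saline mice and 73.5 to 105.6 CPM in morphine mice. That of the noradrenergic list, of which 4 of 6 genes reached 1 CPM, was 18.9 to 32.8 CPM and 17.3 to 34.5 CPM. Both ranges overlapped between treatments.

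**Figure D5:**
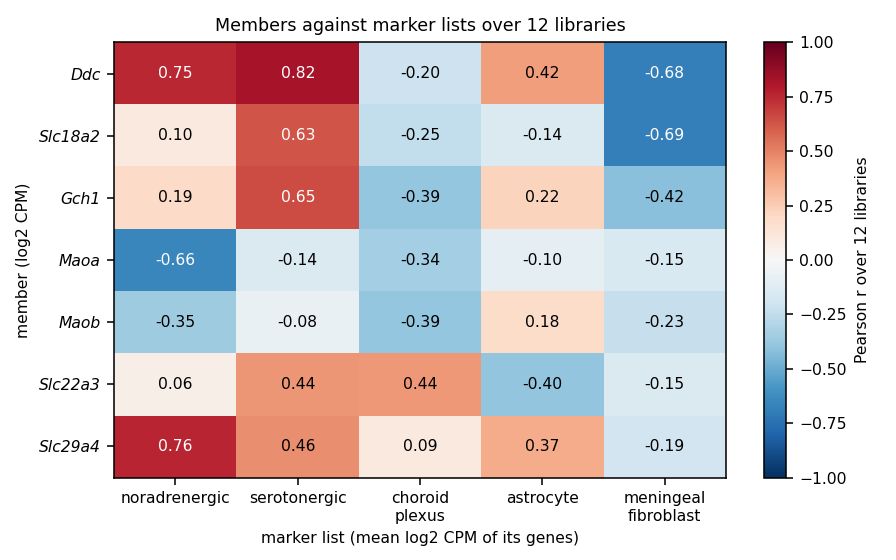
Pearson *r* over 12 libraries between the log2 CPM of each member (rows) and the mean log2 CPM of each marker list (columns). *Ddc* with the serotonergic list has the highest value, 0.82.

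The genes most similar to each member over the 12 libraries, among 15057 genes with a mean of at least 1 CPM, are given as a description. *Slc18a2* was nearest *Rabggtb* (*r* = 0.936) and *Tph2*, the neuronal tryptophan hydroxylase (0.918). *Tph2*, like *Slc18a2*, was lowest in saline male 2, at 20.2 CPM, and highest in morphine female 3, at 41.6 CPM. *Slc29a4* was nearest *Fsd1* (0.997) and *Syt3* (0.996), with transcripts of 57.9% and 59.2% GC. *Maoa* was nearest *Cul1* (0.989) and *Trip4* (0.980), with 44.1% and 42.9% GC. The highest values were lower for *Ddc* (*Bcat1*, 0.932; *Cct5*, 0.927), *Maob* (*Gatc*, 0.924; *Eapp*, 0.924), *Slc22a3* (*Eda2r*, 0.838; *Lipo2*, 0.798), and *Gch1* (*Actr3b*, 0.829; *Nars*, 0.826). These libraries share the GC slopes given above. Among the members, the highest *r* was between *Maoa* and *Maob* (0.814) and the lowest between *Maoa* and *Slc29a4* (-0.836).

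Of the 30 other genes of the pathway, 27 were tested in each fit. Over both sexes, 0 of 27 were DE, 13 had a log2 fold change above 0, and the median was -0.02. In males, 0 of 27 were DE, 9 were above 0, and the median was -0.11. Without morphine male 6, 0 of 27 were DE, 4 were above 0, and the median was -0.22. In females, 1 of 27 was DE, against 1.81% of all genes, 18 were above 0, and the median was 0.09. The DE gene was *Slc6a3*, the dopamine transporter, with a log2 fold change of 1.84 ± 0.75 (SE; unadjusted *p* = 0.0350, adjusted *p* = 1.00). It was at 0.350, 0.547, and 0.425 CPM in saline females and at 0.492, 0.548, and 3.82 CPM in morphine females, so the difference lay in morphine female 3, and without that library the log2 fold change was 0.23. *Slc6a3* also reached 5.99 CPM in saline male 1 and 6.79 CPM in morphine male 6, while the 9 libraries besides these lay at or under 0.754 CPM. These 3 libraries also held the highest *Ddc* levels (50.7, 45.8, and 44.6 CPM), an observation made after the values were seen. Leaving them out gave *Ddc* a log2 fold change of 0.00 ± 0.12 (SE) over both sexes and left 0 members DE.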

How the data were processed

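Poly-A RNA of 12 mice was sequenced as 100 bp single-end reads, pooled on 1 lane. The authors used Trimmomatic for trimming, STAR for alignment to mm10, and featureCounts for counting over exons of an Ensembl annotation (GRCm38); versions and the strand setting are not given in the sources used here. The deposited values are counts per gene, whole numbers with unequal totals, and were treated as raw counts although the paper calls them normalized. Groups came from the labels, and each of the 12 columns was used.

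Counts were tested with edgeR 4.0.16 in R 4.3.3 (quasi-likelihood test, TMM, filterByExpr) with Benjamini-Hochberg adjustment over all genes, with sex as a covariate where both sexes entered. The series names dam as a covariate too, but the labels give no dam. Levels are CPM with TMM factors of the 12 libraries, with a prior count of 2 in logs, and per kb over merged exons of GENCODE M21, where all 55418 symbols were found and 115 stood for more than 1 gene. Transcript sequences are those of GENCODE M21. Alternatives were DESeq2 1.42.0, exactTest, other scalings and filters, a block, a contrast from all mice, and leaving out each mouse. Offsets (loess, span 0.5) for GC content and length, and leaving out libraries for *Slc6a3*, were chosen later, with the data in view. The scripts were tested on simulated data. Correlations used 100000 permutations. With 3 mice against 3, an exact permutation test cannot reach 0.05, so group p-values rest on the model across genes.

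Members, lists, and tests were chosen with earlier results of these data known. The genes named are the members, pathway genes that were DE in a treatment fit, the 5 other pathway genes with the highest saline level per kb, the 2 genes most correlated with each member, and markers beside a result.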

Additional observations from a re-analysis of the deposited data

How the results depend on the processing

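Over the 5 fits, 281 of 309 log2 fold changes recomputed under other settings kept their direction and side of the threshold. Among members, 0 were DE under each setting that kept all mice, except 1 in females against males with no filter. Leaving out each mouse in turn gave 0 to 3 members DE in females, 0 to 1 in males, in the interaction, and in females against males, and 0 over both sexes. The 3 in females came without saline female 4, with 7.95% of all genes DE. The 1 in males, in the interaction, and in females against males came without saline male 3. In those fits 28.6%, 24.1%, and 20.9% of all genes were DE. Replicate numbers join mice of opposite sex and their deviations did not correlate (*r* from -0.352 to 0.182), so they share only a number. With the replicate number as a block, 0 members and 0 other pathway genes were DE over both sexes, 204 genes were DE instead of 221, and the difference in log2 ratio of *Maob* to *Maoa* was -0.03 (exact sign-flip permutation test over 6 pairs).

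Other pathway genes DE over both sexes numbered 1 under the Wald test, no filter, and total counts, instead of 0, and 0 to 1 without single mice. Of all genes, 1.2% were DE under the Wald test, 2.01% with no filter, and 1.33% with total counts. In females the other pathway genes numbered 2 with no filter and 0 in the contrast from all 12 mice, instead of 1, and 0 to 2 without single mice. The share of all genes was 3.15% with no filter and 1.15% in that contrast. In males the other pathway genes numbered 1 in the contrast from all 12 mice, with offsets, with no filter, and with total counts, instead of 0, 8 with offsets and without saline male 3, and 0 to 8 without single mice. The share of all genes was 4.15% in that contrast, 6.83% with offsets, 2.83% with no filter, and 4.44% with total counts. The fits that gave 8 lack saline male 3, and 19.2% of all genes were DE with offsets and 28.6% without them. The relations with marker lists numbered 2 with total counts and 7 with group means removed, instead of 1, and 0 to 3 without single mice.

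Signs that turned belonged to log2 changes near 0. Over both sexes, total counts gave 0.033 for *Gch1*, 0.031 for *Maoa*, and 0.012 for *Maob*, and offsets gave 0.0077 for *Maoa* and 0.031 for *Slc29a4*. In females, offsets gave 0.021 for *Maob*. In males, *Slc18a2* was at 0.0091 in the contrast from all mice, 0.0030 with DESeq2 size factors, 0.0029 under the Wald test, 0.061 with offsets and without saline male 3, and 0.11 with total counts. Total counts gave 0.040 for *Maoa* and 0.052 for *Maob* in males, and *Slc22a3* was at -0.020 with offsets and -0.0079 with no filter. In the interaction, total counts gave 0.018 for *Maoa* and 0.080 for *Maob*. In females against males, *Ddc* was at 0.078 without the 3 libraries high in *Slc6a3*, and *Slc18a2* at -0.045 in saline mice only. *Gch1* there was at -0.0060 with DESeq2 size factors, -0.0062 under the Wald test, -0.035 with offsets, -0.024 with offsets and without saline male 3, -0.0034 with no filter, -0.15 in saline mice only, and -0.0071 with total counts. The cause was not tested.

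Without single mice, log2 changes over both sexes ranged from -0.049 to 0.13 for *Ddc*, -0.091 to 0.044 for *Gch1*, -0.076 to 0.077 for *Maoa*, -0.078 to 0.022 for *Maob*, and -0.25 to 0.064 for *Slc29a4*. In females the range was -0.024 to 0.039 for *Maoa* and -0.083 to 0.045 for *Maob*. In males it was -0.31 to 0.031 for *Ddc*, -0.23 to 0.18 for *Maoa*, -0.16 to 0.12 for *Maob*, -0.28 to 0.19 for *Slc18a2*, and -0.099 to 0.10 for *Slc22a3*. In the interaction it was -0.22 to 0.13 for *Maoa* and -0.11 to 0.12 for *Maob*, and in females against males -0.12 to 0.068 for *Ddc*, -0.071 to 0.037 for *Gch1*, and -0.011 to 0.17 for *Slc18a2*. The difference in the mean log2 ratio of *Maob* to *Maoa*, morphine minus saline, ranged from -0.060 to 0.0052. Depth limits *Gch1* and *Slc22a3* most, with at most 211 and 160 counts.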

Other observations

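Without saline male 3, several genes of cofactor synthesis and aldehyde breakdown were lower in morphine than in saline males, a pattern picked out after the values were seen. With the offsets for GC and length added, 8 of 27 other pathway genes were DE in that fit, 7 of them lower, while 19.2% of all genes were DE. Those with an adjusted *p* under 0.05 included *Aldh2*, the mitochondrial aldehyde dehydrogenase (log2 fold change -0.47, adjusted *p* = 0.00656), *Akr1a1* (-0.59, adjusted *p* = 0.0114), *Spr*, the sepiapterin reductase of tetrahydrobiopterin synthesis (-0.68, adjusted *p* = 0.0161), and *Qdpr* (-0.41, adjusted *p* = 0.0168). With all 6 males and the offsets, 1 of 27 was DE, *Qdpr* (-0.37, adjusted *p* = 0.460), against 6.83% of all genes. The saline males of the first fit are 2 mice, and 0 of the 7 shared members were DE in it.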
